A study of Drosophila melanogaster with 6 samples.

Results

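Metallothionein, ferritin and transferrin genes bind, store and carry copper, zinc and iron in the fly, and 7 of them were followed here in males that had just courted a female. They are the metallothionein genes MtnA, MtnB and MtnC, the ferritin subunit genes Fer1HCH and Fer2LCH, the transferrin gene Tsf1 and Mvl (Malvolio), which encodes a metal transporter. Each is measured by 1 probe set that the platform annotation pairs with that gene alone, out of 10845 genes with a probe set of their own on this array. The genes were chosen by their function and with the exposed and unexposed signals of these 6 arrays in view, so their values are given as a description and no p-value of theirs is reported. The array also carries genes named Fer1, Fer2 and Fer3, but these encode transcription factors of the bHLH class and are not ferritins.

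Whole-body RNA of 6 pools of about 12 Canton-S males each, a wild-type strain, was measured on the version 1 Drosophila Genome Array of Affymetrix, with 1 array per pool. In both treatments males were virgin, 4 days old and housed singly from the day before. Males of 3 pools were placed with a virgin female, watched for 5 min and kept only if they courted robustly without mating, whereas males of the other 3 pools were mock aspirated and met no female. The choice of vigorous courters and the exposure itself therefore cannot be told apart. Arrays are named below by treatment and by the replicate number of their title, and exposed and unexposed arrays with the same number form a pair.

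Metallothioneins are small proteins rich in cysteine that hold copper, zinc and cadmium ions, and their genes are switched on by the metal-responsive transcription factor MTF-1. Insect ferritin is a shell of heavy chains, which oxidize iron, and light chains, and it passes through the secretory pathway and is abundant in the midgut. Transferrin carries iron in the hemolymph, is made largely in the fat body and also takes part in withholding iron from microbes. These proteins are best known in flies from the midgut, where dietary metals are absorbed and stored, and from the fat body.

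The arrays of replicate 1 stood apart from the other 4. Log2 signals of probe sets past the signal filter correlated at 0.910 between both replicate 1 arrays and at 0.972 to 0.985 among the other 4, but only at 0.590 to 0.679 across these sets. For 3 control genes with probe sets at both ends, the signal at the 5′ end is given as a share of that at the 3′ end, a common measure of RNA quality. For GAPDH this share was 17.2% on exposed 1, 51.9% on unexposed 1 and 65.7% to 77.0% on the other 4 arrays. For eIF4a it was 8.85% on exposed 1, 50.01% on unexposed 1 and 51.3% to 60.5% elsewhere, and for actin it was 5.61%, 17.3% and 42.4% to 45.7%. Exposed 1 was thus the lowest array by all 3 controls and far below its own partner, and the part of this gap in the pair 1 ratios given below was not tested. The median of 23 control probe sets for bacterial, yeast and mouse RNA (foreign controls) was 80.1 on exposed 1 and 81.0 on unexposed 1, and between 22.9 and 31.3 elsewhere. The methods name 2 core facilities for hybridization, and which arrays each ran is not given in the sources used here. Of the tissue markers, 5 of 5 testis genes and 4 of 4 accessory gland genes passed the signal filter, for which 3 or more arrays had to reach a signal of 100. Of 4 eggshell and ovarian genes 2 passed it as well, psd and Cp19, with signals of up to 2473 and 894. Vm34Ca, an eggshell gene that did not pass, had 498 on exposed 1, 784 on unexposed 1 and 43.2 to 78.3 elsewhere. The source of these signals in male pools was not tested.

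MtnB was the member whose signal differed most between treatments, and it did so in replicates 2 and 3 alone. MtnB encodes a metallothionein best known for its response to cadmium. Its signals were 332, 214 and 206 on exposed 1 to 3 and 326, 711 and 668 on unexposed 1 to 3. In replicates 2 and 3 both exposed pools lay far below both unexposed pools, by either way of pairing them, whereas both replicate 1 pools lay at 1 level between these. The signal was 3.32-fold lower in the exposed pool of pair 2 and 3.25-fold lower in that of pair 3, and 1.02-fold higher in that of pair 1. The mean log2 ratio of exposed over unexposed was -1.13 (standard error 0.40 from limma, n = 3 pairs), with an SD of 1.01 over pairs. Without replicate 1 it was -1.71, without replicate 2 it was -0.84 and without replicate 3 it was -0.85, so the size of the mean depends on which pairs are used.

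**Figure D1:**
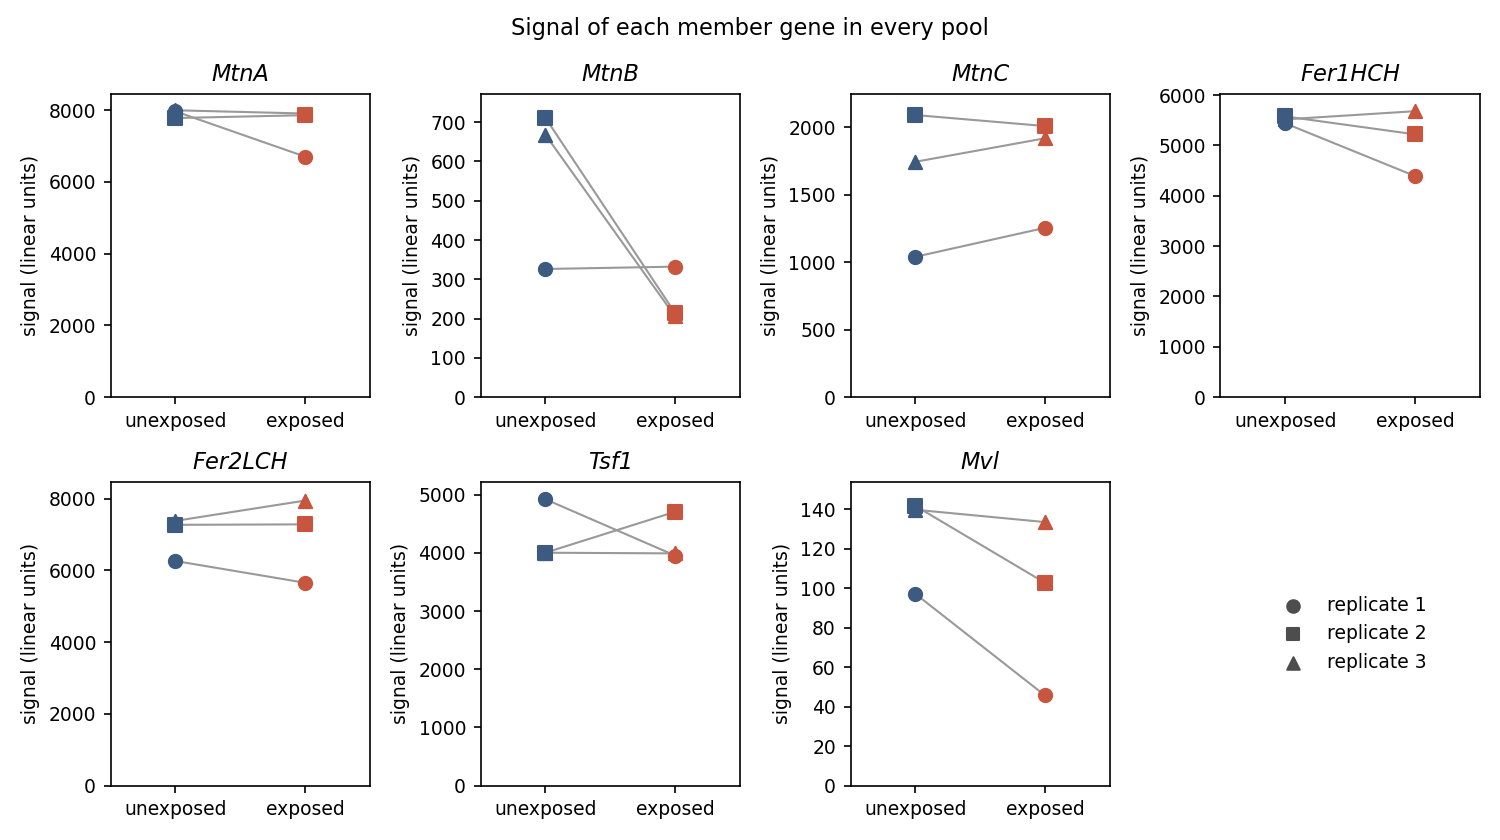
Signal of each member gene (vertical axis, linear units from 0) in the 3 unexposed and 3 exposed pools, with 1 point per array, marker shape for the replicate number and a line joining each pair. MtnB shows signals of 711 and 668 against 214 and 206 in replicates 2 and 3 and 326 against 332 in replicate 1.

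Of the 8251 probe sets that passed the signal filter, 0% were called at a Benjamini-Hochberg adjusted p under 0.05 by limma and 0.0242% at an unadjusted p under 0.001. The study used the limit of 0.001 with a different, Bayesian paired test and over several ways of summarizing expression. The limma share is therefore not a count of the study's own. All 7 members passed the filter. At an unadjusted p under 0.05, 2.12% of all probe sets were lower and 0.376% higher. The members are not set against any of these thresholds, since they were chosen with these values in view. No member had every exposed pool below every unexposed pool, which held for 1.76% of all probe sets, or every exposed pool above every unexposed pool (0.255%). These counts rest on the contrast that the members were chosen with and describe them only.

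A log2 ratio below -1 in both pair 2 and pair 3 was found for 26 probe sets, or 0.315% of those tested, and MtnB was 1 of them. No member had a ratio above 1 in both, which 0.0121% of probe sets did. This rule was set with earlier results of these data known, and it leaves out pair 1, where the MtnB ratio was 0.03. The place of MtnB among the 26 is therefore a description only. Of the 26, 11 are paired with 1 gene, and the 10 other than MtnB include Drs, Mtk, DptB and Def, which encode antimicrobial peptides. Drs had signals of 6890, 2855 and 1622 on exposed 1 to 3 against 8929, 7189 and 6911 on unexposed 1 to 3. Summed over the 6 antimicrobial peptide genes of a list of 9 that have a probe set of their own, the signal was 9365 and 4953 on exposed 2 and 3 and 19613 and 19418 on unexposed 2 and 3. In pair 1 that sum was 22186 on exposed 1 and 27566 on unexposed 1. None of these 6 genes was listed at 0 on any array, and in all 3 pairs the exposed pool was the lower one for 5 of the 6, beside 18.4% of all probe sets. Their median log2 ratio was -0.32, -1.32 and -2.25 in pairs 1 to 3, and what part, if any, these genes and MtnB share was not tested.

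Summed over a marker list of haemocytes, the blood cells of the fly, the signal was higher in the exposed pool where MtnB was lower. This did not hold for every gene of the list. All 7 genes of that list have a probe set of their own, 5 passed the filter and none was listed at 0. Their summed signal was 1019, 1666 and 2494 on exposed 1 to 3 and 1600, 1321 and 1306 on unexposed 1 to 3. The exposed pool had the higher sum in pairs 2 and 3 and the lower one in pair 1, and the median log2 ratio of the 5 was -0.49, 0.32 and 0.45. PPO2, a prophenoloxidase gene of crystal cells, had log2 ratios of -1.12, 0.59 and 1.48, whereas srp and Pvr had -0.35 and -0.22 in pair 2 and 0.03 each in pair 3. The prophenoloxidase genes PPO1 and PPO2 had the largest signals of the list, at 901 and 846 on exposed 3 and 380 and 303 on unexposed 3. The part of haemocytes in the MtnB values was not tested.

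**Figure D2:**
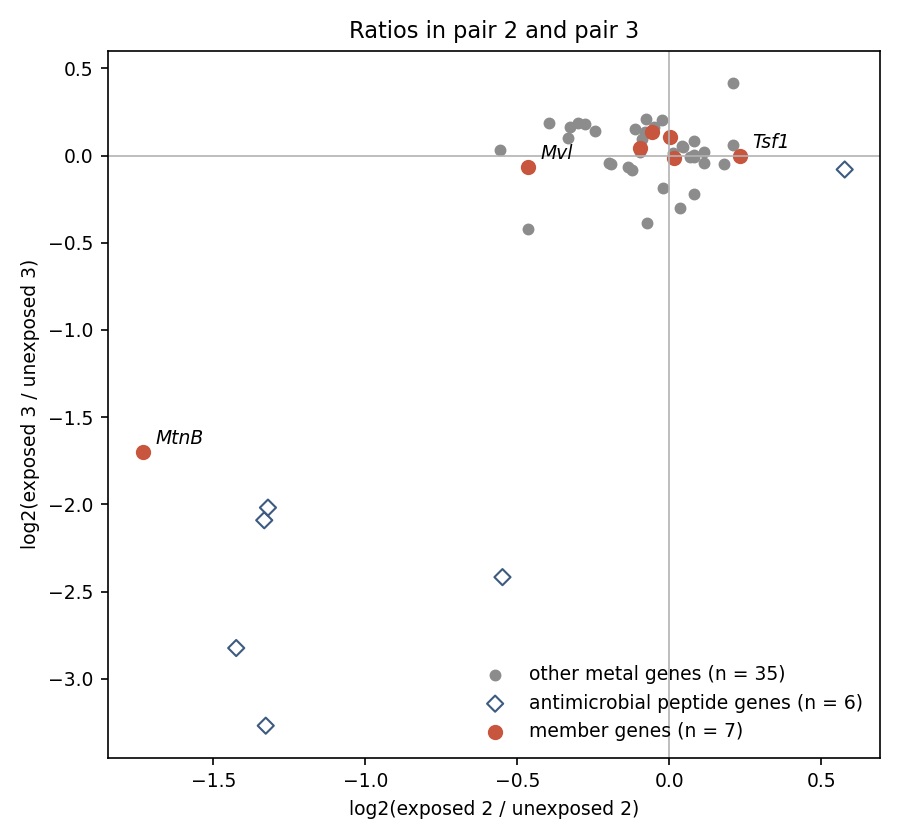
Log2 ratio of exposed over unexposed in pair 2 (horizontal axis) and pair 3 (vertical axis) for the 7 member genes (filled red), 35 other metal genes (grey) and 6 antimicrobial peptide genes (open diamonds). MtnB, at -1.73 and -1.70, lies apart from the other 6 members and on the side of 5 of the 6 antimicrobial peptide genes.

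Digestive enzyme genes of the midgut showed no such gap between treatments in replicates 2 and 3. Of a list of 7 such genes, 6 have their own probe set, and none of these was listed at 0. Their summed signal was 8528 and 9110 on exposed 2 and 3 against 9257 and 9100 on unexposed 2 and 3. The median log2 ratio of the 5 that passed the filter was 0.11, -0.13 and 0.00 in pairs 1 to 3. Lambda-trypsin (lambdaTry), a digestive protease, had signals of 883 and 863 on exposed 2 and 3 and 867 and 826 on unexposed 2 and 3. In RNA of whole bodies, fewer cells of a type and less RNA per cell cannot be told apart.

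MtnC did not share the pattern of MtnB. It encodes another metallothionein, and in the RefSeq gene table only 7 genes lie between MtnB and MtnC on chromosome arm 3R. Its signals were 1255, 2009 and 1919 on exposed 1 to 3 and 1040, 2091 and 1745 on unexposed 1 to 3. The order of the pools followed the replicates and not the treatment, with both replicate 1 pools lowest and the other 4 between 1745 and 2091. The log2 ratios were 0.27, -0.06 and 0.14, with a mean of 0.12 (standard error 0.13, n = 3 pairs), so that exposed and unexposed pools overlapped. Within each array, the MtnB ratio lay below that of MtnC by 0.24, 1.67 and 1.84 on the log2 scale in pairs 1 to 3.

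MtnA, the metallothionein gene best known for its response to copper, varied little in 5 of the 6 pools. Its signals were 6702, 7858 and 7903 on exposed 1 to 3 and 7963, 7778 and 7994 on unexposed 1 to 3. Exposed 1 was the low pool, and the other 5 lay within 1.03-fold of each other, across both treatments. The log2 ratios were -0.25, 0.01 and -0.02, with a mean of -0.08 (standard error 0.13), beside medians over all probe sets of -0.21, -0.08 and 0.05 in the same pairs. The highest signal of any probe set was 9188 to 11694 on these arrays, which bounds the scale on which the MtnA values were read.

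The ferritin subunit genes had signals in exposed pools 2 and 3 close to those of unexposed pools 2 and 3. Fer1HCH, the heavy chain gene, gave 4392, 5219 and 5678 on exposed 1 to 3 and 5436, 5574 and 5516 on unexposed 1 to 3. The unexposed pools were within 1.03-fold of each other, whereas the exposed pools spread from below to above them. Fer2LCH, the light chain gene, gave 5656, 7284 and 7947 on exposed 1 to 3 and 6262, 7271 and 7381 on unexposed 1 to 3. Both replicate 1 pools had the lowest Fer2LCH signals, and the treatments overlapped. The mean log2 ratio was -0.12 (standard error 0.14) for Fer1HCH and -0.01 (standard error 0.13) for Fer2LCH.

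Both chains are needed in the ferritin shell, and no gene of the RefSeq table lies between Fer1HCH and Fer2LCH on arm 3R. Their ratios ran in the same order, with the lowest in pair 1 and the highest in pair 3, at -0.31, -0.09 and 0.04 for Fer1HCH and -0.15, 0.00 and 0.11 for Fer2LCH. The medians over all probe sets had the same order over the pairs. The Fer2LCH ratio lay above the Fer1HCH ratio in 3 of 3 pairs, by 0.16, 0.10 and 0.06 on the log2 scale.

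Tsf1 signals lay between 3955 and 4922 on the 6 arrays. They were 3955, 4707 and 3992 on exposed 1 to 3 and 4922, 4004 and 4004 on unexposed 1 to 3. In each treatment 1 pool was high, unexposed 1 and exposed 2, and the other 4 pools lay within a narrow band. The log2 ratios were thus -0.32, 0.23 and 0.00, with a mean of -0.03 (standard error 0.16, n = 3 pairs). The antimicrobial peptide genes, which like Tsf1 are expressed in the fat body, had their 2 lowest summed signals on exposed 3 and exposed 2, where Tsf1 was in the narrow band on the first and high on the second. Of the fat body marker list, 6 of 6 genes passed the filter, none was listed at 0, and the summed signal was 10839 to 14318 in exposed and 11005 to 15661 in unexposed pools. The list includes the yolk protein gene Yp1, which had signals of 1448 on exposed 1, 1076 on unexposed 1 and 319 to 399 elsewhere.

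Mvl, the fly member of the NRAMP family of divalent metal transporters, had the lowest signals of the members and was the only one with the lower signal in the exposed pool of every pair. Its signals were 45.7, 103 and 133 on exposed 1 to 3 and 97.1, 142 and 140 on unexposed 1 to 3. Exposed 1, at under the signal filter of 100, was also below the foreign control median of its array (80.1), and unexposed 1 was little above its own (81.0), so the ratio of pair 1 sets a value below that background against one near it. The log2 ratios were -1.09, -0.46 and -0.07, with a mean of -0.54 (standard error 0.23), and the treatments overlapped. Without replicate 1 the mean was -0.26 and without replicate 3 it was -0.78. A ratio below 0 in 3 of 3 pairs was found for 18.4% of all probe sets, and no member had a ratio above 0 in 3 of 3, as 6.23% did.

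Set beside all ratios on the array, the members differed from pair to pair. In pairs 2 and 3, 5 of 7 members had log2 ratios within 0.25 of 0 in both, beside 50.1% of all probe sets. Between the 25th and 75th percentile of all ratios lay 4 of 7 members in pair 1, 4 of 7 in pair 2 and 6 of 7 in pair 3. MtnB was outside in all 3 pairs, far below this range in pairs 2 and 3 but just above it in pair 1. Mvl was outside in pairs 1 and 2, MtnC in pair 1 and Tsf1 in pair 2. The median of the 7 mean ratios was -0.08, beside -0.09 over all probe sets tested, so that as a group the members stood where the array as a whole did.

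**Figure D3:**
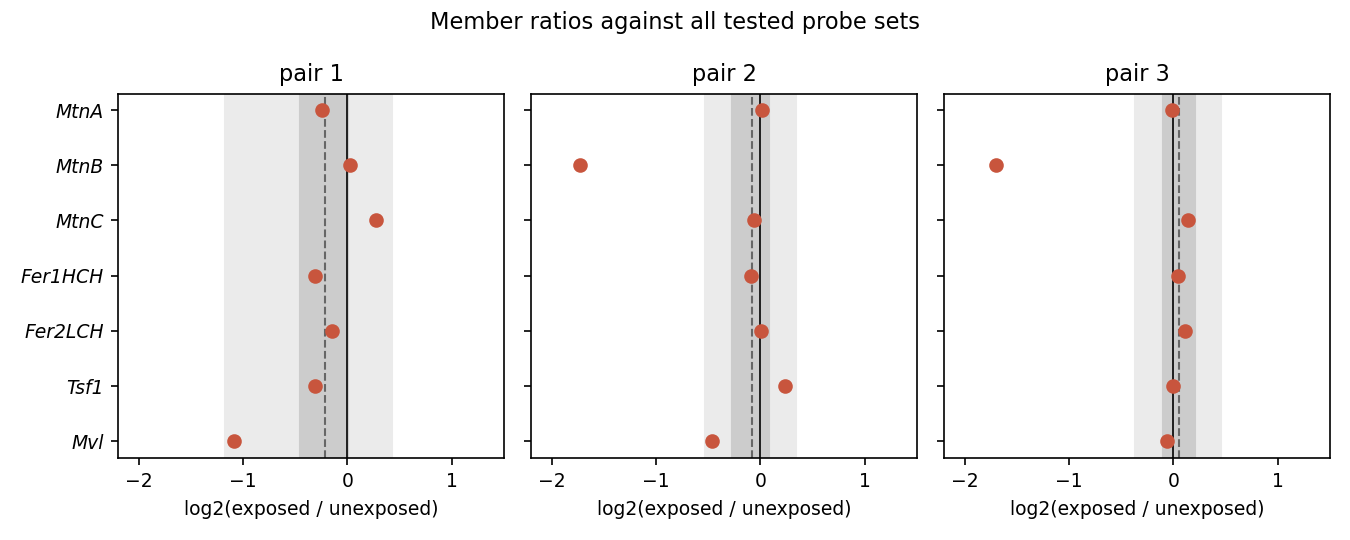
Log2 ratio of exposed over unexposed of each member gene in pairs 1 to 3, over the range of the 8251 tested probe sets (dark band, 25th to 75th percentile, light band, 5th to 95th percentile, dashed line, median). MtnB lies outside the light band in pairs 2 and 3, at -1.73 and -1.70, and inside it in pair 1, at 0.03.

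Levels also differed between replicate 1 and the other pools. The mean log2 signal of the replicate 1 arrays was below that of the other 4 for 6 of 7 members and for 65.7% of all probe sets, with a median difference of -0.21 over the members and -0.59 over all probe sets. MtnC (-0.76) and Mvl (-0.95) had the largest differences and Tsf1 (0.08) the smallest. For MtnB this difference ran opposite ways in the 2 treatments, since exposed 1 was 1.58 times the mean of exposed 2 and 3 and unexposed 1 was 0.473 times the mean of unexposed 2 and 3. The foreign control median was high on both replicate 1 arrays and the 5′ share was lowest on exposed 1, as given above, and their part in these differences was not tested.

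Other genes of copper, zinc and iron handling were fitted in the same test. Of 48 such genes on a list, 41 have a probe set of their own, 35 passed the signal filter, and 0 of the 35 were called at an adjusted p under 0.05 or at an unadjusted p under 0.05 by limma. Over all probe sets tested these shares were 0% at the first threshold and 2.12% lower and 0.376% higher at the second. Their median log2 ratio was -0.09, as it was over all probe sets. The metallothionein genes MtnD, MtnE and MtnF have no probe set of their own here and were not analysed. By mean log2 ratio 24 of the 35 were below 0 and 11 above, beside 70.5% of all probe sets below 0. In both pair 2 and pair 3, 25 of the 35 lay within 0.25 of 0, beside 50.1% of all probe sets. Atox1 and FeCH, listed at 0 on some arrays, are among the 35 with these signals raised to 1. Atox1 is so counted among the 24 below 0.

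Among the copper genes, MTF-1, the transcription factor that activates the metallothionein genes, had a mean log2 ratio of -0.10 (standard error 0.12, adjusted p = 0.918 from limma) by its brighter probe set. Its signals there were 784, 229 and 192 on exposed 1 to 3 and 841, 233 and 218 on unexposed 1 to 3, so exposed and unexposed pools of a replicate lay close together. The other MTF-1 probe set gave -0.15 (standard error 0.12, adjusted p = 0.905 from limma). Among copper importers, Ctr1A had -0.02, Ctr1B had -0.17 and Ctr1C had -0.09, with adjusted p-values of 0.978, 0.917 and 0.929 from limma. Ctr1B, which supplies copper from the gut, had 900 and 943 on exposed 2 and 3 against 931 and 841 on unexposed 2 and 3. ATP7, the copper exporter, had -0.36 (standard error 0.18, adjusted p = 0.905 from limma), with ratios of -0.56, -0.56 and 0.03 in pairs 1 to 3. The copper chaperone gene Atox1 was listed at 0 on exposed 1, so its pair 1 ratio of -7.61 in the fit rests on the floor of 1. Its ratios in pairs 2 and 3 were both 0.05.

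Among the iron genes, Fer3HCH, a ferritin heavy chain gene of mitochondria, had signals of 423, 164 and 131 on exposed 1 to 3 and 592, 154 and 153 on unexposed 1 to 3. Both replicate 1 pools were the highest, in contrast with Fer1HCH and Fer2LCH, and the mean log2 ratio was -0.21 (standard error 0.16, adjusted p = 0.905 from limma). Tsf2, a transferrin gene of epithelial junctions, had -0.08 (standard error 0.12), Irp-1A and Irp-1B, of the iron regulatory protein family, had 0.00 and -0.05, and mfrn, the mitochondrial iron importer, had 0.08. Tsf3 was below the signal filter, at 33.6 to 95.9 on exposed and 33.8 to 124 on unexposed arrays. Ferrochelatase (FeCH), which puts iron into heme, was listed at 0 on both replicate 1 arrays. The zinc transporter gene Zip99C, whose product also moves iron into the secretory pathway, had -0.27 (standard error 0.21, adjusted p = 0.905 from limma).

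Among these 35 genes, 7 had ratios of 1 sign in all 3 pairs. They were 5 lower and 2 higher, beside 18.4% lower and 6.23% higher over all probe sets. The 5 lower ones were the multicopper oxidase gene Mco1 (mean -0.25), Alas (-0.22), which encodes the first enzyme of heme synthesis, the zinc transporter gene Catsup (-0.19), MTF-1 (-0.10) and CG1275 (-0.09). The 2 higher ones were Cox17 (0.07), a copper chaperone gene of cytochrome oxidase, and IscU (0.06), the scaffold gene of iron-sulfur clusters. IscU was named after its values were seen, because it alone had every exposed pool above every unexposed pool, although the lowest exposed signal (3347.4) and the highest unexposed one (3346.8) nearly coincide. That is 1 of 35 genes, beside 0.255% of all probe sets, and the adjusted p of IscU was 0.934 from limma.

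**Figure D4:**
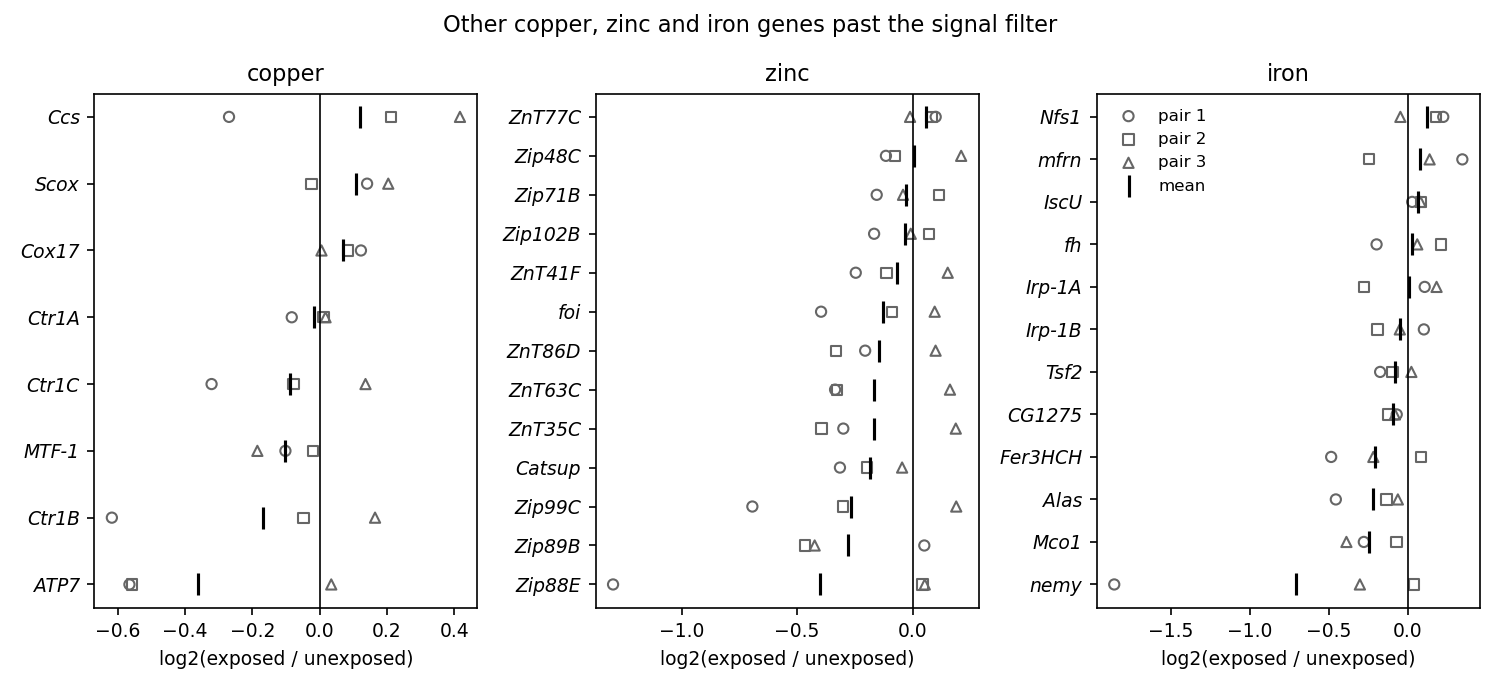
Log2 ratio of exposed over unexposed for other copper, zinc and iron genes past the signal filter (open symbols, pairs 1 to 3, bar, mean), leaving out Atox1 and FeCH, which were listed at 0 on at least 1 array. The points of Zip88E and nemy farthest from 0 are those of pair 1, at -1.30 and -1.86. The nemy points are those of its brighter probe set, and its other probe set past the filter had -0.04 in pair 1.

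The genes whose log2 signals were most like each member over the 6 arrays differed from member to member. Pearson's r to MtnB was 0.968 for CG2747, 0.967 for CG11912 and 0.939 for Obsc, a gene of the muscle sarcomere. CG2747 spanned only 90.3 to 121 and CG11912 435 to 514 over the 6 arrays, far narrower ranges than that of MtnB. Obsc had signals of 323, 297 and 250 on exposed 1 to 3 and 339, 439 and 382 on unexposed 1 to 3, with exposed 2 and 3 below unexposed 2 and 3 as for MtnB. For MtnA the nearest were Chchd2, OtopLc and Mp20, for MtnC they were CG7968, CG6168 and CG32813, and for Tsf1 they were CG45263, CG7991 and CG17777. For Fer1HCH they were CG4286, Vha36-2 and Cdc14, for Fer2LCH they were Dci, DnaJ-1 and Tango9, and for Mvl they were sra, scrib and LysE. No gene came up for more than 1 member. These 21 coefficients lay between 0.893 and 0.999 and are descriptions over 6 arrays. For each member other than MtnB, a replicate 1 array held the lowest or the highest signal. For MtnB the replicate 1 signals lay between those of exposed and unexposed pools 2 and 3. Over the 4 arrays of replicates 2 and 3, 0 of the 3 genes were named again for any member.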

How the data were processed

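The authors deposited an intensity for each probe set of each array, linear and with exact zeros. Processing notes of the submitters name GCOS 1.2, while the methods list GCOS beside a PM-only and a PM-MM summary of dChip; the sources used here do not say which of them the deposited intensities are or how they were scaled. Control probe sets (44 of 14010 rows) were kept out of tests. Gene names follow the platform annotation, with RefSeq Release 6 symbols taken over through Entrez IDs; 12444 rows have 1 gene, 327 have several and 1239 have none here. No sequence or coordinate is printed.

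Signals were raised to a floor of 1 and put on the log2 scale without other normalization. Limma 3.58.1 in R 4.3.3 (lmFit, eBayes) fitted treatment plus the replicate number as a block to the 8251 probe sets that reached 100 on 3 or more of the 6 arrays, a filter taken from the methods, and p-values were adjusted over all of these. Pools are separate groups of males, and the number of arrays limits the precision. The block follows the paired test of the methods, whose groups were collected and analysed side by side. Deviations from the treatment means correlated within the pairs at 0.844, 0.76 and 0.78. For exposed 2 with unexposed 3 and exposed 3 with unexposed 2, which are no pairs, they correlated at 0.806 and 0.814. Replicate 1 carries these values, since over replicates 2 and 3 alone the differences between arrays of a treatment correlated at -0.332. The code was tested on simulated arrays.

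The members, the gene lists, the limits of -1 and 0.25 on log2 ratios and the alternatives were chosen with earlier results of these data known. Named are every member, metal genes past a threshold, the 6 with the largest mean among those of 1 sign in all pairs, a set of fixed names, and the 3 genes most like each member by Pearson's r. Where a gene has more than 1 probe set, the brightest stands for it. Of 5 eye genes none has its own here.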

Additional observations from a re-analysis of the deposited data

How the results depend on the processing

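Under 10 alternatives, each member's mean log2 ratio moved by less than its SD over pairs, which some of them could not exceed. MtnB, Fer1HCH and Mvl stayed below 0 in 10 of 10 (MtnB from -1.71 to -0.84) and MtnC above 0, whereas MtnA, Fer2LCH and Tsf1, with means near 0, took both signs. The median over the members, -0.08, was -0.02 after quantile normalization and 0.04 after median centring, and lay between -0.13 and 0.00 when 1 replicate was left out. With no replicate block, the replicate 1 arrays as a batch or limma-trend, the ratios are the same by construction. Leaving out 1 of 3 pairs cannot move a mean by as much as its SD over pairs. These alternatives therefore could not fail the SD measure. With no replicate block the standard error of MtnB was 0.42. The count over all probe sets at an unadjusted p under 0.001, 2 in the reported fit, was 1 with no replicate block, 1 after quantile normalization, 1 after median centring, 4 with signals under 50 set to 50, 4 with 32 added to every signal, 5 with the replicate 1 arrays as a batch, 5 with no filter, and between 0 and 14 when 1 replicate was left out. At an adjusted p under 0.05 it was 2 without replicate 1 and 0 under each other alternative. The count of other metal genes at an unadjusted p under 0.05, 0 in the reported fit, was between 0 and 1 when 1 replicate was left out: Zip89B without replicate 1 (log2 ratio -0.44, adjusted p = 1 from limma) and ATP7 without replicate 3 (-0.56, adjusted p = 0.705 from limma). At an adjusted p under 0.05 it was 0 under each alternative. The causes were not tested. Leaving out 1 replicate leaves 2 pairs and 1 residual degree of freedom, so limma's pooled variance carries those fits. The 3 genes most like each member were shared in at most 1 case after quantile normalization. Motif counts in promoters were not run.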

Other observations

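Zip89B, a zinc transporter gene, had log2 ratios of -0.46 and -0.42 in pairs 2 and 3, against 0.05 in pair 1. Its signals were 144, 84.3 and 79.9 on exposed 1 to 3 and 139, 116 and 107 on unexposed 1 to 3, so that, as for MtnB, both exposed pools of replicates 2 and 3 lay below both unexposed pools and the replicate 1 pools lay together. It was chosen after its values were seen.

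Of the other metal genes, MTF-1 and nemy have 2 probe sets of their own past the filter. In 2 of the 2, the replicate 1 arrays were above the other arrays by 1 probe set and below them by the other. For MTF-1 these differences were 1.90 and -1.65 on the log2 scale, from signals of 784 and 841 against 192 to 233 by the brighter probe set and of 152 and 157 against 446 to 535 by the other. Over the array, 341 genes have 2 tested probe sets of their own, and for 140 of these, or 41.1%, the replicate 1 difference ran opposite ways. Irp-1A and FeCH also have a second probe set, which did not pass the filter, and the signals of 0 of FeCH on both replicate 1 arrays leave it no difference. Each member has a single probe set, so its replicate 1 difference cannot be set against a second one.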
